A study of Mus musculus with 37 samples.

Results

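A set of 9 genes best known from the sensory cells of the eye and the inner ear were followed in the hippocampus of mice that lacked Kdm1a in forebrain neurons, out of the 48795 genes counted. The genes were chosen by name with earlier results of these same libraries in view, and several were picked for being higher in Kdm1a-ifKOs. Their differences between genotypes are therefore given as a description without a test. Prcd, Nxnl1, Reep6, Rom1 and Prph2 belong to photoreceptors, and Ush1g, Myo7a, Cdh23 and Whrn to hair cells. The question was whether a sensory-cell programme or single genes were higher after the loss of Kdm1a.

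Kdm1a is a histone demethylase that acts on lysine 4 of histone H3. The Kdm1a-ifKOs carried Kdm1a f/f alleles with loxP sites around exons 5 to 6 and the Camk2a-creERT2 transgene on a C57BL/6J background. They received tamoxifen by 5 intragastric administrations on alternate days from 8 weeks of age. Control littermates lacked Cre and received the same tamoxifen. Whole hippocampi of 3 male mice per genotype were profiled by poly-A RNA-seq, with 1 library per mouse, and the age at RNA collection is not given in the sources used here. Camk2a drives Cre in excitatory forebrain neurons, so glia and other cells of the tissue kept the gene. CTCF ChIA-PET, which maps pairs of DNA sites joined through the architectural protein CTCF, came from 1 library of sorted nuclei of excitatory hippocampal neurons. These came from male 12-week-old mice of another line, with wild-type Kdm1a, that carried Camk2a-creERT2 and the nuclear tag CAG-Sun1/sfGFP and had received tamoxifen.

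Photoreceptors detect light in an outer segment packed with membrane discs. The tetraspanins Prph2 and Rom1 shape the rims of these discs. Hair cells detect sound and head movement with stereocilia, and the Usher proteins build the tip links between stereocilia and anchor them to the actin core. Loss of many of these genes causes retinal degeneration, deafness or both.

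The libraries held between 18985542 and 19469947 counts, and the first principal component, with 50.2% of the variance, separated the genotypes. Kdm1a itself was counted 1521, 1545 and 1481 times in controls and 764, 726 and 748 times in Kdm1a-ifKOs, a log2FC of -1.07 (SE 0.0559; edgeR quasi-likelihood test, Benjamini-Hochberg adjusted p = 6.24e-08). Of 16799 genes tested, 6.04% were called higher in Kdm1a-ifKOs and 2.82% lower at an adjusted p under 0.05.

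Enough counts for the test were found for 8 of the 9 genes. The call over the whole table marked 6 of the 8 as higher in Kdm1a-ifKOs (background 6.04%), 3 of them with a log2FC over 1 (background 1.36%), and 0 as lower (background 2.82%), also 0 with DESeq2 and 0 lower at an unadjusted p under 0.05. In 6 genes every Kdm1a-ifKO library lay above every control library, which 15.7% of the tested genes also showed. Since the genes were selected on this contrast, nothing is read from these shares. The called genes were Nxnl1, Rom1, Prcd and Reep6 of photoreceptors and Ush1g and Whrn of hair cells. Myo7a and Cdh23 were not called, and Prph2 was at the limit of detection. The tissue was bulk, so more cells that transcribe a gene and more RNA per cell cannot be told apart.

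The sequences upstream of 3 disc or cone genes are shown first, because the genes ended at opposite ends of the results. Nxnl1 had the largest log2FC among the 9, Rom1 shares its upstream stretch with a neighbouring gene of the same log2FC, and Prph2, the partner of Rom1, stayed silent. They are reference sequences from RefSeq (GRCm38.p6), read 5′ to 3′ towards the gene's start, with CpG dinucleotides in capitals and without bases of any annotated exon. The Nxnl1 stretch is chr8:71566650-71566899 (minus strand), that of Rom1 is chr19:8929357-8929551 (minus strand) and that of Prph2 is chr17:46910228-46910458 (plus strand).
Nxnl1: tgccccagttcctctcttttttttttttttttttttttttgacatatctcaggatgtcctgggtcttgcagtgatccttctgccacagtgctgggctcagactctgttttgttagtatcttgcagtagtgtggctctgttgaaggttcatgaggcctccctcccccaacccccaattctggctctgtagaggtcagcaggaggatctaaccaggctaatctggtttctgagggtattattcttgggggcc
Rom1: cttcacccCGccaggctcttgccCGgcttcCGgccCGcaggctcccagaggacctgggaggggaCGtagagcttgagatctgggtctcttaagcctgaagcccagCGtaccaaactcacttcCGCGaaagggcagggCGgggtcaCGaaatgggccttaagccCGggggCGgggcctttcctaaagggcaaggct
Prph2: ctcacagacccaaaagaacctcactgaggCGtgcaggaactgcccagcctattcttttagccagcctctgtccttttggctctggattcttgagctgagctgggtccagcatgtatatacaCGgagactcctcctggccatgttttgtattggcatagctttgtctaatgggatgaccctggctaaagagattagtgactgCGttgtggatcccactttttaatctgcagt
The 250 bases upstream of Nxnl1 held 0 CpG, the 195 bases upstream of Rom1 held 12 and the 231 bases upstream of Prph2 held 3.

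Among the photoreceptor genes, Nxnl1 encodes rod-derived cone viability factor, a thioredoxin-like protein that keeps cones alive. Nxnl1 (chr8:71560555-71566601, minus strand) was counted 1, 0 and 1 times in controls 1 to 3 and 19, 22 and 17 times in Kdm1a-ifKOs 1 to 3. It was thus all but absent from each control and present at a low level in each Kdm1a-ifKO, and the groups did not overlap. With 2 counts in the controls against 58, the ratio was 28.1 with an exact 95% counting interval of 7.43 to 237. Such intervals cover counting error only. The fitted log2FC was 4.58 (SE 0.585), and in CPM (counts per 1000000 counts of the TMM-scaled library) Kdm1a-ifKOs reached 0.989 ± 0.122 (SD, n = 3).

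Rom1 (chr19:8927391-8929356, minus strand), the disc-rim tetraspanin, had 99, 66 and 59 counts in controls and 182, 182 and 213 in Kdm1a-ifKOs. Control 1 was the highest control, yet it stayed well below the lowest Kdm1a-ifKO. Controls averaged 3.94 ± 1.08 CPM and Kdm1a-ifKOs 9.84 ± 0.948 CPM (SD, n = 3 per genotype), with a log2FC of 1.32 (SE 0.172).

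Prph2 (chr17:46910459-46924933, plus strand), which pairs with Rom1 in the disc rim, had 0, 1 and 0 counts in controls and 1, 0 and 0 in Kdm1a-ifKOs. Both genotypes were under the 3 counts that a count of 0 allows, so no fold change was formed. A transcript of Prph2 was not detectable at this depth in 4 of the 6 libraries, and Rom1 was higher without it.

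Prcd (chr11:116653534-116668389, plus strand) encodes a small disc protein whose loss causes progressive rod-cone degeneration. It was counted 62, 56 and 50 times in controls and 115, 88 and 94 times in Kdm1a-ifKOs. The groups did not overlap, and Kdm1a-ifKO 1 was the highest library. The log2FC was 0.78 (SE 0.169), from 2.96 ± 0.278 to 5.07 ± 0.753 CPM.

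Reep6 (chr10:80329953-80336441, plus strand), an endoplasmic reticulum protein of rods, had 168, 141 and 129 counts in controls and 241, 204 and 233 in Kdm1a-ifKOs. Its groups were also separate, with control 1 and Kdm1a-ifKO 2 lying nearest to each other. The log2FC was 0.59 (SE 0.122), from 7.71 ± 0.963 to 11.6 ± 1.07 CPM. Without Kdm1a-ifKO 1 the calls of Prcd and Reep6 were lost, which left 4 genes called higher.

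Among the hair-cell genes, Ush1g encodes the scaffold protein SANS at the upper end of the tip link. Ush1g (chr11:115315192-115322041, minus strand) was counted 11, 16 and 14 times in controls and 69, 75 and 90 times in Kdm1a-ifKOs. The groups were far apart, and Kdm1a-ifKO 3 was the highest library. Controls averaged 0.723 ± 0.135 CPM and Kdm1a-ifKOs 3.99 ± 0.56 CPM, a ratio of 5.52 and a log2FC of 2.46 (SE 0.23).

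Whrn (chr4:63414910-63495991, minus strand) encodes whirlin, a PDZ scaffold of stereocilia tips. It had 480, 518 and 493 counts in controls and 599, 759 and 716 in Kdm1a-ifKOs. Kdm1a-ifKO 1 lay closest to the controls but above all 3. The log2FC of 0.43 (SE 0.0846) was the smallest among the called genes, from 26.3 ± 1.07 to 35.4 ± 4.05 CPM.

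Myo7a (chr7:98051060-98119524, minus strand), the motor protein of the same tip-link complex as Ush1g, had 606, 513 and 498 counts in controls and 484, 546 and 540 in Kdm1a-ifKOs. The groups overlapped, with a log2FC of -0.09 (SE 0.0827). Cdh23 (chr10:60302748-60696490, minus strand), the cadherin of the upper part of the tip link, had 115, 71 and 67 counts in controls and 69, 87 and 72 in Kdm1a-ifKOs. Its groups overlapped too, control 1 stood above the other 5 libraries, and the log2FC was -0.19 (SE 0.207), or 0.09 without control 1. Both tested genes outside the call thus had a negative log2FC and were not near it, while Whrn and Reep6 had the smallest differences inside it.

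**Figure D1:**
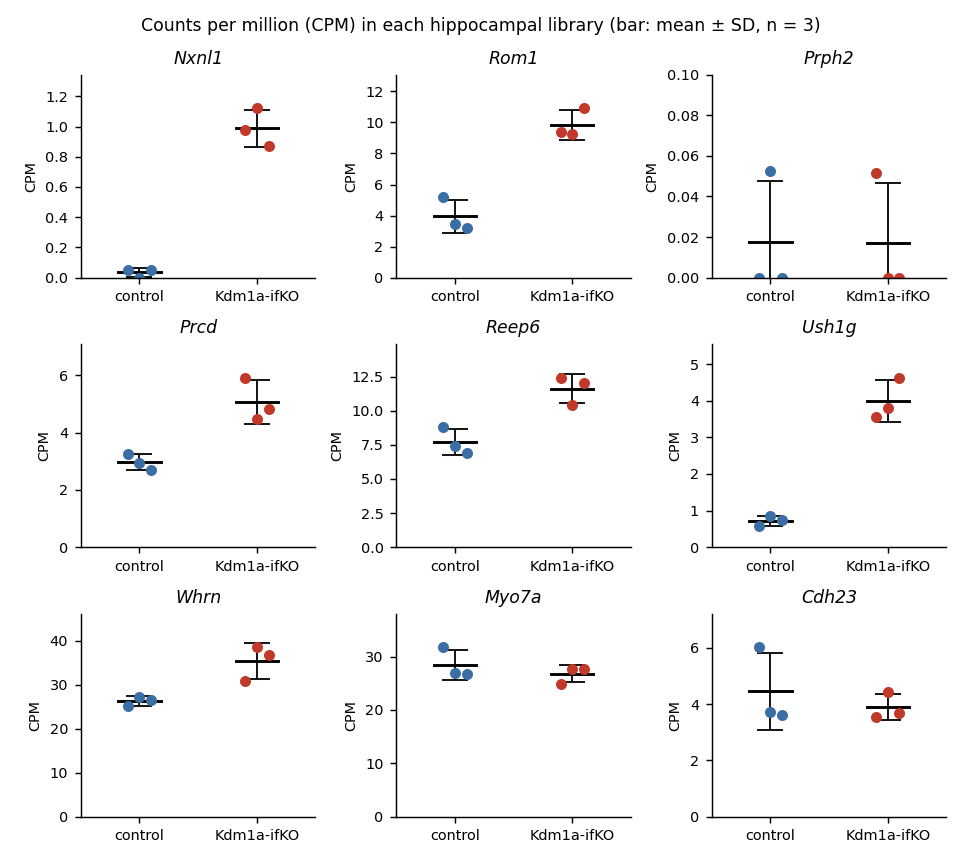
CPM (y axis, linear from 0, own scale per gene) in the 3 control (blue) and 3 Kdm1a-ifKO (red) libraries, with mean and SD as black bars. The red points of Nxnl1, Rom1, Prcd, Reep6, Ush1g and Whrn lie above all blue points, those of Myo7a and Cdh23 overlap them, and Prph2 has 1 count in 1 library of each genotype.

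Levels can be compared between genes only per transcript length, here as TPM (transcripts per 1000000, from counts over the summed exon length). In controls the order was Whrn (14.2 ± 0.542 TPM), Myo7a (13.2 ± 1.35), Reep6 (12.2 ± 1.58), Rom1 (10.3 ± 2.88) and Prcd (7.66 ± 0.751), and each of these overlapped the next in its library values. After a gap followed Cdh23 (1.04 ± 0.323 TPM) and Ush1g (0.868 ± 0.16), which overlapped each other. Nxnl1 (0.0514 ± 0.0446 TPM) and Prph2 (0.0232 ± 0.0401) came last. The control hippocampus thus already expressed 5 of the 9 genes, 3 of photoreceptors and 2 of hair cells, at several TPM. In Kdm1a-ifKOs, Rom1 stood highest with 25.9 ± 2.4 TPM, followed by Whrn with 19.3 ± 2.3, Reep6 with 18.4 ± 1.59, Prcd with 13.2 ± 1.89 and Myo7a with 12.5 ± 0.811. Ush1g reached 4.82 ± 0.666 TPM and Nxnl1 1.45 ± 0.189 TPM, both below the control level of Prcd.

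**Figure D2:**
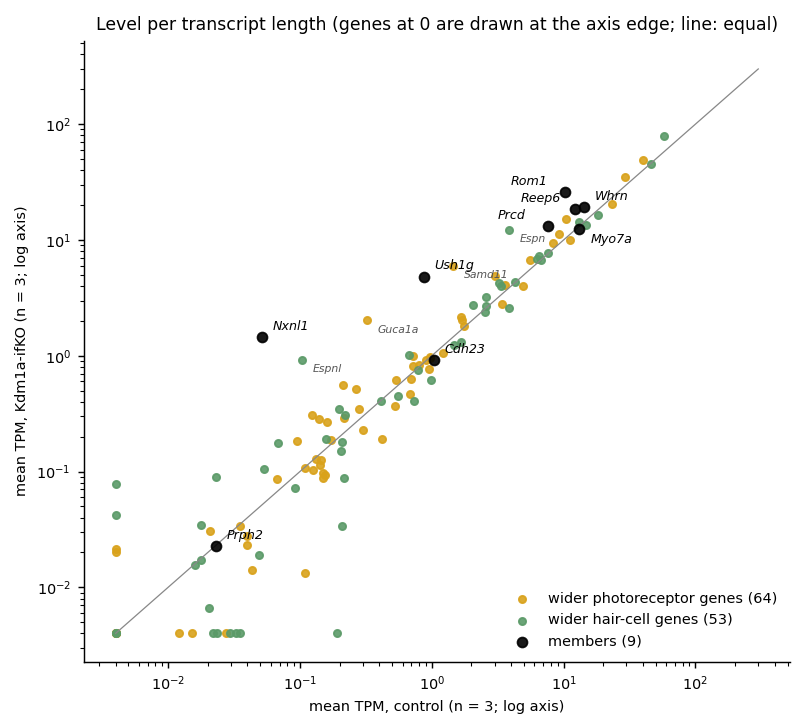
Mean TPM in Kdm1a-ifKOs (y axis, log) against controls (x axis, log) for the 9 genes (black), the 64 wider photoreceptor genes (yellow) and the 53 wider hair-cell genes (green). Genes at 0 are drawn at the axis edge. Nxnl1 and Ush1g stand farthest above the line of equal levels among the 9, and most wider genes lie near the line or below 1 TPM.

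The rest of each programme was counted in lists of well-known genes of the same cells. Of 64 further photoreceptor genes, 28 were tested, 4 were called higher and 0 lower (adjusted p under 0.05 over all genes; 0 lower with DESeq2, 1 lower at an unadjusted p under 0.05), and the median log2FC of the tested genes was 0.11, beside -0.0034 over all tested genes. The 4 were 6.25% of the 64 listed genes, but the 36 that were not tested could not be called. The like count is 4 of the 28 tested, a larger share than the 6.04% of all tested genes called higher (2.82% were called lower). Since the lists were chosen with earlier results known, nothing is read from this share. The 36 genes that were not tested summed to 292 counts in controls and 332 in Kdm1a-ifKOs. The rod transducin gene Gnat1 had 7 counts over the controls and 12 over the Kdm1a-ifKOs. Among the transcription factors, 4 of 10 stayed at or near 0. Crx, which switches on photoreceptor genes, had 0 counts in controls and 1 in Kdm1a-ifKOs, and Nr2e3, a factor of rod identity, also had 0 and 1. Nrl, the rod determinant, had 79 and 81 counts (log2FC -0.01, adjusted p = 0.987), and Otx2 had 41 and 29 (log2FC -0.54, adjusted p = 0.743). Rax had 1 and 0 counts and Samd7 2 and 2. Prdm1 (log2FC 0.20), Thrb (-0.20) and Rorb (0.17) were not called.

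The 4 photoreceptor genes called higher did different things. Samd11, a repressor of rod nuclei, went from 75 to 316 summed counts (log2FC 2.02, edgeR adjusted p = 5.97e-05). Gucy2e, a retinal guanylate cyclase, had a log2FC of 0.70 (adjusted p = 0.00184) and Cdhr1, a cadherin at the outer segment base, 0.53 (adjusted p = 0.00441). Unc119, a carrier of lipid-modified proteins and the most abundant gene of the list in TPM, had a log2FC of 0.29 (adjusted p = 0.0274). Its call was lost with DESeq2 (adjusted p = 0.0615) and in 4 of the 6 fits without 1 library. By role, 1 of 10 tested phototransduction genes (30 listed) and 2 of 9 tested outer segment genes (16 listed) were called higher. The counts were 0 of 3 tested visual cycle genes (8 listed) and 1 of 6 tested transcription factors (10 listed). In these groups 0 were called lower. Of all tested genes 6.04% were called higher and 2.82% lower, and nothing is read from counts this small. With no filter on low counts 8 of the 64 were called higher, among them Guca1a, which activates retinal guanylate cyclase, with 4 and 26 summed counts. The share of all genes called higher in that fit is not given here, so the 8 have no background beside them.

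Of 53 further hair-cell genes, 26 were tested, 3 were called higher and 1 lower, with a median log2FC of 0.02. The 3 were 5.66% of the 53 listed genes, but the 27 that were not tested could not be called. The like count is 3 of the 26 tested, again a larger share than the 6.04% of all tested genes called higher. Of all tested genes, 2.82% were lower. Nothing is read from these shares either. The 27 that were not tested summed to 139 counts in controls and 127 in Kdm1a-ifKOs. Of 7 transcription factors, 3 were at or near 0. Atoh1, Pou4f3 and Gfi1 each had 1 count over the controls and 0 over the Kdm1a-ifKOs. Lhx3 had 9 and 8 counts, Barhl1 3 and 6, while Insm1 (336 and 350 counts, log2FC 0.01) and Ikzf2 (279 and 225 counts, log2FC -0.36) were expressed and not called. The transduction channel gene Tmc1 had 5 and 2 counts, and the outer hair-cell motor gene Slc26a5 had 3 and 8.

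Of the 3 hair-cell genes called higher, 2 encode espins. Espnl, an espin-like protein, went from 8 to 74 summed counts (log2FC 3.10, edgeR adjusted p = 0.00109). Espn, which crosslinks actin in stereocilia, went from 458 to 1495 (log2FC 1.66, adjusted p = 6.24e-08). Cib2, a calcium-binding partner of the transduction channel and the most abundant gene of the list in TPM, had a log2FC of 0.44 (adjusted p = 0.00211). Slc17a8, the vesicular glutamate transporter of inner hair cells, which brain neurons also use, had a log2FC of -0.57 (adjusted p = 0.0474), a call lost in each of the 6 fits without 1 library. Cib2 was the only called gene of the 5 tested in the Usher and tip-link list of 8. Its other tested genes, Pcdh15 (-0.11), Adgrv1 (-0.04), Clrn1 (-0.24) and Pdzd7 (0.13), were not called. Ush1c, which binds Ush1g directly, had 12 counts over the controls and 5 over the Kdm1a-ifKOs. Ush1g, Whrn and Cib2 were thus called higher, while Myo7a, Cdh23 and Pcdh15 were not called and Ush1c was not tested.

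**Figure D3:**
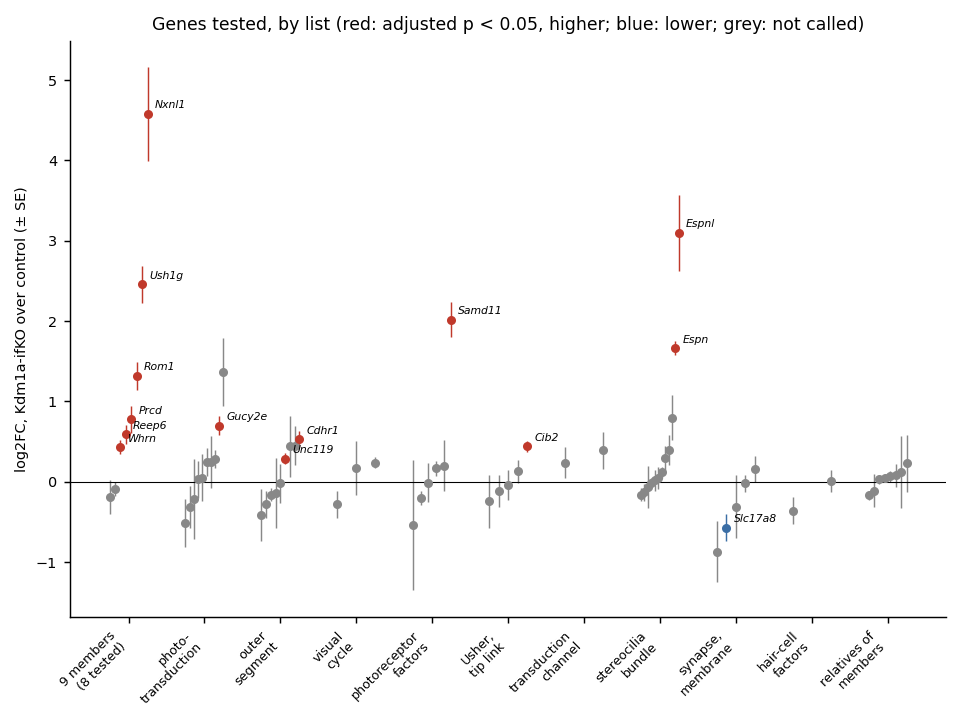
The log2FC of Kdm1a-ifKO over control (y axis, ± SE) for the tested genes of each list (x axis), with genes called higher in red, lower in blue and not called in grey. Outside the 9, the values of genes called higher run from 0.29 for Unc119 to 3.10 for Espnl. The visual cycle (3 tested), transduction channel (2), hair-cell synapse and membrane (5), hair-cell factor (2) and relatives (8) lists hold 0 such genes. Slc17a8 (-0.57) is called lower, and most grey points lie near 0.

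Relatives of the 9 genes by sequence or by complex were examined next. Of 11 such genes, 8 were tested and 0 were called by edgeR, with 0 called by DESeq2 and 1 at an unadjusted p under 0.05. For Reep6, the log2FC was -0.17 for Reep1, 0.03 for Reep2, 0.07 for Reep3, -0.11 for Reep4 and 0.05 for Reep5. For Nxnl1, Nxn had a log2FC of 0.08, and Nxnl2 had 6 and 8 summed counts. For Ush1g, Anks4b, its relative in the gut brush border, had a log2FC of 0.12.

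The genes next to the 9 on the chromosome came next. Among the 18 nearest tested genes, 1 on each side, 8 were called higher and 1 lower. For the 6 called genes the count was 7 of 12 neighbours, and 5 of the 6 had at least 1 such neighbour. Over the table, 11.4% of the neighbours of genes called higher were themselves called higher, and 5.79% of the neighbours of other genes. The 9 genes were chosen with these results known, so the count is a description.

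The Nxnl1 locus held the largest pair. Tmem221, 1.68 kb downstream of Nxnl1 on the same strand, had 1, 2 and 2 counts in controls and 29, 27 and 22 in Kdm1a-ifKOs. Like Nxnl1 it was nearly silent in each control (log2FC 3.82, SE 0.434, edgeR adjusted p = 8.8e-05). On the other side Slc27a1, a fatty acid transporter whose start is 2.28 kb from that of Nxnl1, had a log2FC of 0.17 (adjusted p = 0.0412), and its call was lost in each of the 6 fits without 1 library.

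Ush1g lies wholly inside the span of Otop2, an otopetrin proton channel gene on the opposite strand. Otop2 had 7, 4 and 16 counts in controls and 41, 47 and 48 in Kdm1a-ifKOs (log2FC 2.27, SE 0.355, adjusted p = 0.00141). Its groups did not overlap, and control 3 was the highest control. The annotated exons of Ush1g and Otop2 share 0 bases. Fads6, 17.5 kb on the other side, was not called (log2FC 0.01, adjusted p = 0.953).

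Rom1 and Eml3, a microtubule-associated protein gene, start 196 bp apart and run in opposite directions from the stretch printed above. Eml3 had 288, 276 and 253 counts in controls and 697, 697 and 710 in Kdm1a-ifKOs. Its log2FC of 1.32 (SE 0.0715, adjusted p = 8.41e-08) equalled that of Rom1 to 2 decimals, with less spread between libraries. B3gat3, which ends 155 bp beyond the other end of Rom1, had a log2FC of 0.01 (adjusted p = 0.912). The difference at this locus was thus found on both sides of the shared start region and not at the gene that ends beside it.

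Reep6 also has a divergent partner, Pcsk4, a proprotein convertase gene whose start is 455 bp away. Pcsk4 had a log2FC of 0.73 (adjusted p = 0.0221) and Adamtsl5, 2.67 kb beyond the other end, 0.62 (adjusted p = 0.024), beside 0.59 for Reep6. Both calls were fragile, with Pcsk4 called in 2 and Adamtsl5 in 1 of the 6 fits without 1 library. Prcd overlaps Cygb, the cytoglobin gene, on the opposite strand, and 201 of its exon bases (13.1%) are shared with Cygb exons. Cygb had 3715 and 5252 summed counts (log2FC 0.45, adjusted p = 0.000489). The strand setting of the counting is not given in the sources used here, so reads from the shared bases cannot be assigned to Prcd or Cygb. The gene on the other side of Prcd, 1810032O08Rik, had a log2FC of -0.13 (adjusted p = 0.702).

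Whrn was called without a called neighbour. Akna had a log2FC of 0.39 (adjusted p = 0.129) and Atp6v1g1 0.04 (adjusted p = 0.782). The reverse held for Myo7a, which was not called while Capn5, a calpain gene 2.04 kb away, was (log2FC 0.30, adjusted p = 0.00506). Pak1, the gene 139 kb on the other side of Myo7a, was called lower with a log2FC of -0.16 (adjusted p = 0.0491), and kept the call in 1 of the 6 fits without 1 library. Around Cdh23, Vsir (0.29, adjusted p = 0.126) and Slc29a3 (0.13, adjusted p = 0.439) were not called, nor were Tbcc (-0.06, adjusted p = 0.792) and Ubr2 (0.08, adjusted p = 0.366) around Prph2.

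**Figure D4:**
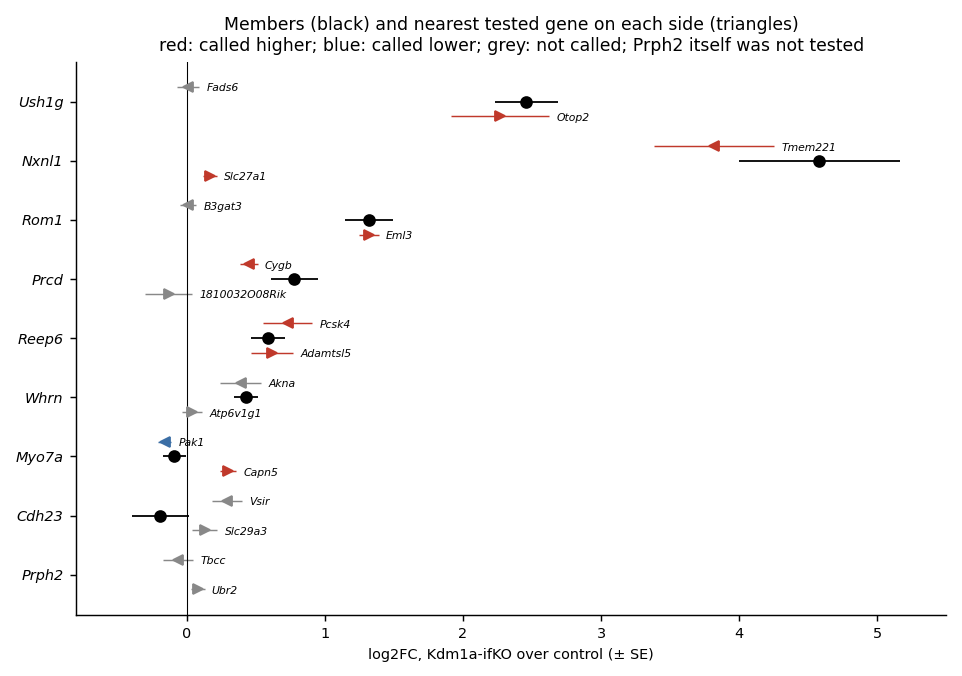
The log2FC of Kdm1a-ifKO over control (x axis, ± SE) for each of the 9 genes (black circles) and its nearest tested gene on the left (left-pointing triangles) and right (right-pointing triangles), red when called higher, blue when called lower and grey when not called. Tmem221, Otop2 and Eml3 lie beside Nxnl1, Ush1g and Rom1, while Prph2 was not tested and has 2 grey neighbours.

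CTCF loops of excitatory neurons reached 8 of the 9 genes within 10 kb of the gene body, where 56.9% of the tested genes had such an anchor. The library is 1 sample, so these values have no replicate check. Cdh23, the longest of the 9, had 26 loops, of which 14 had both ends at the gene. Prcd had 11, Myo7a and Nxnl1 7 each, Prph2 6, Ush1g and Whrn 5 each and Reep6 3. Rom1 had 0 loops, and the shortest loop that contained it spanned 147.9 kb. Paired-end tags (PETs) count the ligated DNA pairs behind a loop, here at least 3.

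The strongest loop of Ush1g held 66 PETs. It joined the upstream end of the gene (chr11:115321098-115324277) to a site 31.5 kb away (chr11:115350020-115358450) near Otop3 and Hid1. Otop3, another otopetrin gene, had 5 summed counts in controls and 78 in Kdm1a-ifKOs (log2FC 3.82, SE 0.522, edgeR adjusted p = 0.000439), while Hid1 had a log2FC of 0.13 (adjusted p = 0.147). Ush1g, Otop2 and Otop3 were thus called higher, and Hid1 at the same far anchor was not. The loop was mapped in mice with wild-type Kdm1a, and its part in these differences was not tested. For Nxnl1 the strongest loop (59 PETs, 31.3 kb) led to Slc27a1 and to Pgls (log2FC -0.03, adjusted p = 0.85). For Prcd it held 86 PETs over 24.7 kb, and both of its ends lay within 10 kb of Prcd. Cygb and 1810032O08Rik, the adjacent genes, also lay within 10 kb of its far end.

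Reep6 had the strongest loop of the 9 genes, with 118 PETs over 36.5 kb, to Plk5 (log2FC 0.26, adjusted p = 0.204) and Mex3d (0.07, adjusted p = 0.707). For Myo7a a loop of 15 PETs led to Tsku (0.10, adjusted p = 0.828). The strongest loop of Myo7a (23 PETs) had both ends at the gene itself, with an end within 10 kb of Capn5. A loop of 3 PETs led from Myo7a to Capn5. Loops of Cdh23 led to Slc29a3 and Unc5b (0.13, adjusted p = 0.377), and those of Whrn to Akna and, over 2182.2 kb with 3 PETs, to Astn2 (-0.28, adjusted p = 0.0405, called lower). Among the 16 genes at far anchors that were examined, 4 were called higher and 1 lower (background 6.04% and 2.82%), and 3 of the 4, Capn5, Cygb and Slc27a1, are adjacent genes already counted above. Outside the limit of 2 such genes for each of the 9, Mxra7 at a loop of Prcd (50 PETs) and Adamtsl5 at a loop of Reep6 (34 PETs), picked after their values were seen, were also called higher.

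Upstream windows of 250 bases were available for 7 of the 9 genes, with 2 for Myo7a. The called genes Ush1g and Reep6 had no window. Nxnl1 had 0 CpG (percentile 7.87 among 32851 RefSeq windows) and 47.6% GC. Whrn had 21 CpG (percentile 85.2) and Rom1 17 (percentile 78.3; its window runs on into the first exon of Eml3), where the median window had 6. Prcd and Prph2 had 4 each, Cdh23 had 5, and Myo7a had 6 and 4. The Prcd window (chr11:116656858-116657107) and the second Myo7a window (chr7:98109249-98109498) lie inside the annotated gene bodies, not upstream of them. The called genes that had a window therefore included both CpG-rich and CpG-free ones. A total of 4 motifs was searched on both strands. TAATCC, the core site of the photoreceptor factors CRX and OTX2, was in 0 of the 8 windows and in 6.25% of all. CAGCACC and GGACAG, 2 parts of the RE1 element to which REST and the Kdm1a-containing CoREST complex bind, were each searched alone. CAGCACC occurred once in a Myo7a window (5.73% of all), and GGACAG occurred once each in Cdh23 and Rom1 and 2 times in Prph2 (18.7% of all). The TATA box TATAAA was in 0 of the 8 (12.4% of all). These are matches of letters in a short window and say nothing of binding.

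Some markers of other cells differed between genotypes as well. The counts of called markers stand beside 6.04% of all tested genes called higher and 2.82% called lower. The summed level of 7 astrocyte markers was 2550 to 2710 CPM in controls and 2970 to 3220 CPM in Kdm1a-ifKOs, with 3 of 7 called higher (Slc1a3, Aldoc and S100b). The summed level of 7 microglia markers was 328 to 358 CPM and 375 to 481 CPM, with 3 of 7 called higher (Cx3cr1, Tmem119 and Csf1r). For 8 choroid plexus markers it was 37.3 to 62.0 CPM and 66.0 to 72.9 CPM, with 1 of 8 called higher (Kl). Without Kl the other 7 summed to 10.7 to 38.2 CPM and 6.22 to 12.9 CPM, and Ttr, the most abundant of them, averaged 16.6 ± 13.4 and 5.9 ± 2.45 CPM (log2FC -1.49, adjusted p = 0.337). For 4 genes of the pineal gland, whose cells are related to photoreceptors, the sum was 2.96 to 3.68 CPM and 4.42 to 5.6 CPM, with 1 of 4 called higher (Gch1, which other tissues also express). For 8 interneuron markers the sums were 875 to 945 CPM and 844 to 879 CPM, with 2 of 8 called lower (Vip and Npy). The sums for oligodendrocytes (4570 to 4990 and 4310 to 5520 CPM), ependyma (19.8 to 30.5 and 17.2 to 26.6 CPM) and endothelial cells (255 to 265 and 254 to 292 CPM) overlapped between genotypes. None of the markers in these lists was at 0 in all 6 libraries. For 8 excitatory neuron markers the sum was 7960 to 8270 CPM and 7630 to 8450 CPM, with 2 of 8 called lower, so the labelled tissue carried its defining markers. The part of these cells in the values of the 9 genes was not tested.

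Over the 6 libraries, the genes whose log2 CPM followed Ush1g most closely were Htr7, a serotonin receptor (Pearson r = 0.9988), Igdcc4 (0.9986) and Smo, the Hedgehog signal transducer (0.9984). The 6 points fall into the 2 genotypes, and nothing is read from the likeness. Htr7 had a log2FC of 0.44, Igdcc4 of 0.47 and Smo of 0.93, all smaller than that of Ush1g.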

How the data were processed

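RNA-seq counts were deposited by the authors as whole-number reads per Ensembl gene, without normalization. Per the labels and methods, single-end poly-A reads were trimmed with cutadapt 1.18, aligned with HISAT2 2.1.0 to GRCm38 (mm10), filtered at a mapping quality over 30 and counted with HTSeq 0.11.1. The counts of the ChIA-PET loops are PETs that the authors obtained with ChIA-PIPE from 1 library (27786 loops, at least 3 PETs, a CTCF peak at both anchors), and the sequencing depth behind them is unknown here. ChIP-seq, histone mark and 4C files were not used here.

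The 6 libraries (3 per genotype) were compared with the robust quasi-likelihood F test of edgeR 4.0.16 in R 4.3.3, after filterByExpr and TMM scaling, two-sided, with Benjamini-Hochberg adjustment over 16799 genes. The test was checked on simulated data. CPM used TMM library sizes, and TPM used summed exon lengths of GENCODE M21 (99.3% of identifiers matched). For 1 gene alone, an exact permutation test of 3 against 3 cannot go below p = 0.1. Replicates were compared and differed beyond sampling noise. Marker sums and loop anchors (within 10 kb of the gene) used the same annotation, and upstream sequences came from RefSeq. Analyses ran in Python 3.11.15 with pandas 2.3.3, numpy 2.4.6 and scipy 1.17.1.

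The 9 genes and all gene lists were chosen with earlier results of these data known. Named genes were the 9, Kdm1a, the called genes, most abundant gene and transcription factors of each list, the tested neighbours, up to 2 genes at far loop anchors and the 3 genes most like Ush1g. Gnat1, Tmc1, Slc26a5, Guca1a and the further members of the Usher list and of the relatives were named after their values were seen. Some genes of the lists are counted but not reported here by name. Alternatives were DESeq2 1.42.0, its size factors, upper-quartile scaling, no filter or at least 10 counts, a replicate block, omission of each library, and other anchor distances and PET minimums.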

Additional observations from a re-analysis of the deposited data

How the results depend on the processing

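The call of 6 of the 9 genes as higher was kept under DESeq2, its size factors in edgeR, upper-quartile scaling, no filter, at least 10 counts and the replicate block, and omitting single libraries gave 4 to 6. The lowest count came without Kdm1a-ifKO 1. Among these fits the sign of Cdh23 turned once, with a log2FC between -0.32 and 0.09 over the fits without 1 library and 0.09 without control 1. Kdm1a ranged from -1.09 to -1.05 without single libraries.

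Among the wider photoreceptor genes, 8 in place of 4 were called higher with no filter, and omitting single libraries gave 3 to 5 higher and 0 to 1 lower. The 1 hair-cell gene called lower became 0 with DESeq2, upper-quartile scaling, at least 10 counts, the replicate block and in each fit without 1 library (0 to 0). Neighbours called higher fell from 8 to between 5 and 6 without single libraries, with 5 without control 3 or Kdm1a-ifKO 2. The 1 neighbour called lower became 0 with DESeq2 size factors, upper-quartile scaling, no filter, at least 10 counts and the replicate block, and 0 to 1 without single libraries. The cause of these shifts was not tested.

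With the replicate block 6 of the 9 genes and 7 neighbours were called higher. Same-numbered libraries did not deviate together (r = -0.032, -0.089 and -0.144). This gave no sign that the numbers pair the mice, but it cannot exclude a pairing. An anchor was found at 7 of the 9 genes on the gene body itself, 8 within 25 kb, 8 with at least 5 PETs and 7 with at least 10. With 3 mice per genotype and 2 control counts, the size of the Nxnl1 difference is known only within its wide interval, and Prph2 cannot be compared.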
